A study of Homo sapiens with 4 samples.

Results

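Ribosome biogenesis and nucleolar genes were read from arrays of the Jurkat line, which was established from a human T cell leukaemia, through a list of 44 genes whose products transcribe, modify, cut or assemble ribosomal RNA. The genes were found as probe sets that the platform annotation names with 1 symbol from the list. This gave 38 of the 44 genes, each taken from whichever of its probe sets was brightest by mean log2 signal, among 13717 genes measured, and all 38 passed the filter on low signals. NOP56, DKC1, BOP1 and PPAN have probe sets that the annotation names together with another gene, GNL3 and DDX18 have no named probe set, and these 6 genes were not analysed here. The arrays came from 4 groups of 1 sample each: cells whose IKKε is targeted by a hairpin RNA (called the shIKKE line), treated for 3 h with 10 ng/ml PMA and 0.5 uM ionomycin, the same line with solvent, a control line with PMA and ionomycin, and the control line with solvent. The control construct is a hairpin in the design text and a vector in the sample titles. Whether either line is a clone or a pool is not given in the sources used here. PMA activates protein kinase C and ionomycin raises cytosolic calcium, so that the pair mimics signals from the T cell receptor, and IKKε is a kinase of NF-κB and interferon signalling.

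A ribosome begins in the nucleolus, where RNA polymerase I copies the ribosomal DNA into a long precursor. Small nucleolar ribonucleoproteins (snoRNPs) modify this precursor, and the small-subunit processome and the large-subunit assembly factors fold and cut it while ribosomal proteins are added. T cells enlarge their nucleoli and raise ribosome output when they are activated, and the transcription factor MYC is a known activator of many of these genes.

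Each value below is a MAS5 signal, a brightness per probe set in arbitrary units on a linear scale. Each difference is a difference of log2(signal + 14.1), which understates the change of dim genes. With 1 array per group no difference has a replicate check, and those between single arrays carry no p-value. The threshold for counting a gene was a 2-fold difference, with 1.5-fold as a lower one. On a bulk array, less RNA per cell and fewer cells with that RNA cannot be told apart. The ACTB 5′ to 3′ signal ratio, a measure of RNA integrity, was 0.266 in the stimulated shIKKE line, 0.339 in the shIKKE line with solvent, 0.401 in the stimulated control line and 0.244 in the control line with solvent. The same ratio of GAPDH lay between 1.04 and 1.17. All 10 T cell markers were measured, with summed signals from 71821 to 78515, and CD3D read from 26370.4 to 28570.3. Of 6 B cell, 6 myeloid and 7 erythroid and epithelial markers, 3, 3 and 2 were measured, and their sums stayed at or below 744, 259 and 335. The brighter probe set of IKBKE, which encodes IKKε, read 248 in the stimulated shIKKE line and 520.2 in the stimulated control line (log2 -1.03), and with solvent 180.2 in the shIKKE line and 339.9 in the control line (log2 -0.87). A second IKBKE probe set gave log2 -0.15 and 0.38, so the knockdown was seen by 1 of 2 probe sets.

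One array stood apart for nearly the whole group. The control line with solvent had the lowest signal of the 4 arrays for 35 of the 38 genes, whereas it was the lowest for 25.9% of all genes and 25.2% of the 6858 genes above the median level, to which 37 of the 38 belong. It lay at least 1.5-fold below each of the other 3 arrays for 18 of the 38 genes, against 5.15% of all genes and 3.11% of the brighter ones. FBL, NOC4L and BYSL were the exceptions, with their lowest signal in the stimulated shIKKE line. The other 3 arrays lay close together, with a median range of 0.29 on the log2 scale over the 38 genes, against 0.37 for the genes above the median level. The highest array was the shIKKE line with solvent for 23 of the 38 genes, against 24.6% of all genes and 31.9% of the brighter ones. It was the stimulated control line for 11 (18.9% and 18.3%) and the stimulated shIKKE line for 4 (24.7% and 14%). That solvent array of the control line enters the control line's stimulation response, the comparison of the lines with solvent and the difference between the lines' responses. These comparisons are therefore not independent of each other. That array also had the lowest ACTB ratio, next to that of the stimulated shIKKE line, and the part of RNA integrity in the pattern was not tested.

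**Figure D1:**
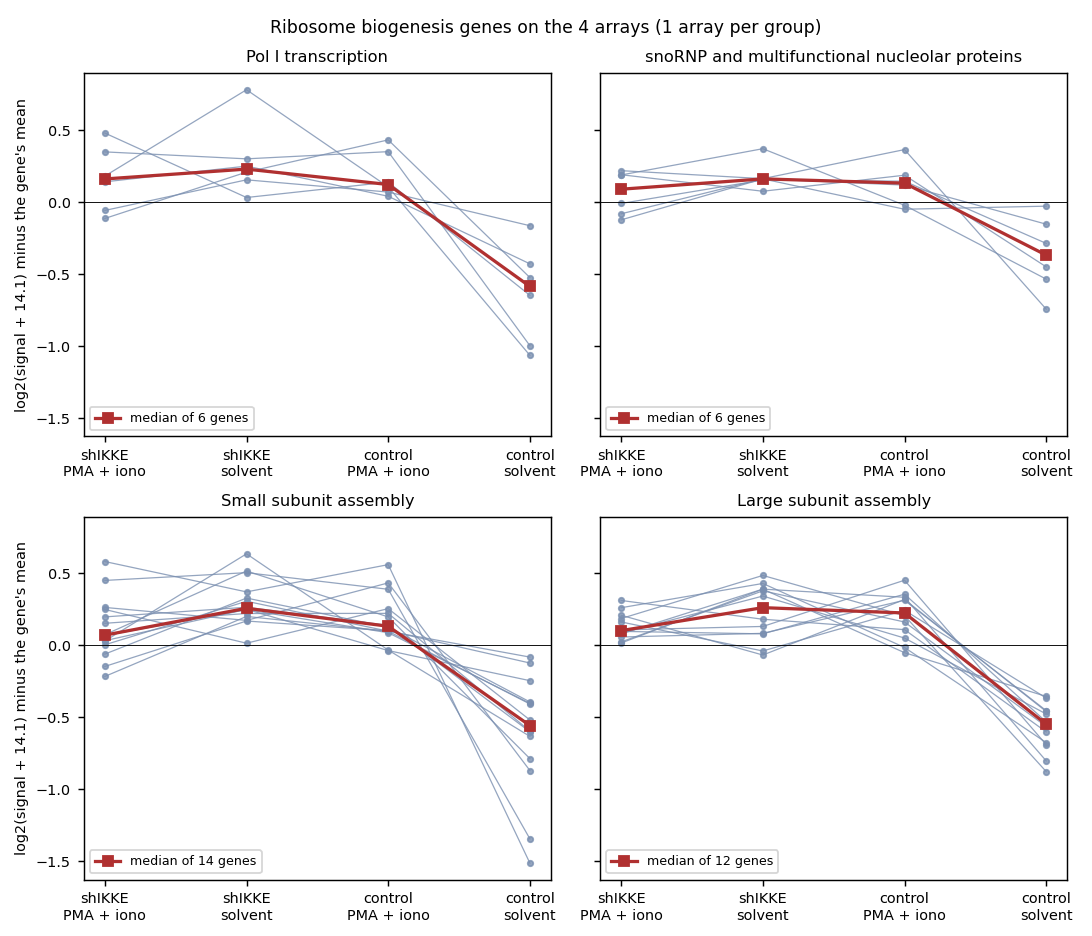
Level of each gene on the 4 arrays, as log2(signal + 14.1) minus the gene's mean over the arrays, by role. Thin lines are genes and the thick line is the median of the role. In each role the median was lowest in the control line with solvent, and the other 3 arrays were close to each other.

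Sequence upstream of the start was compared because the genes moved together. RefSeq promoters (GRCh38.p14) were matched for 37 of the 44 genes, as 44 promoters, and the 250 bases before the start were searched on both strands. A gene with several promoters was counted if any of them had a match. CACGTG, the E-box that MYC and other factors bind, was present for 4 of the 37 genes (10.8%), against 7.73% of all 27305 genes with a promoter and 699 of 5834 such genes above the median level, so that the share was near that of other brighter genes. These were UTP20, DDX21, UTP4 and UTP18, and their responses to stimulation in the control line were 2.07, 1.11, 0.51 and 0.21 on the log2 scale. The median was 0.81 for these 4 genes and 0.73 for the 29 analysed genes with a promoter and no E-box. CCGGAAG or its complement CTTCCGG, the core bound by ETS factors, was present for 15 of 37 (40.5%), against 10.2% of all genes and 22.6% of those above the median level. It was present for 34.4% of 61 cytosolic ribosomal protein genes. Among the 33 analysed genes with a promoter, those with and without CCGGAAG had median responses to stimulation in the control line of 0.63 (14 genes) and 0.74 (19 genes) on the log2 scale. A match describes letters in this window and is not evidence of binding. The promoters of 5 genes are printed with matches in capitals: UTP20 and DDX21, the 2 of the 4 E-box genes that passed 2-fold in the control line, POLR1B and POLR1C, subunits of RNA polymerase I with the ETS core, and FBL, the gene with the smallest difference between responses. They lie at chr12:101279855-101280104 (plus strand), chr10:68956397-68956646 (plus), chr2:112541786-112542035 (plus), chr6:43516839-43517088 (plus) and chr19:39846380-39846629 (minus).
UTP20: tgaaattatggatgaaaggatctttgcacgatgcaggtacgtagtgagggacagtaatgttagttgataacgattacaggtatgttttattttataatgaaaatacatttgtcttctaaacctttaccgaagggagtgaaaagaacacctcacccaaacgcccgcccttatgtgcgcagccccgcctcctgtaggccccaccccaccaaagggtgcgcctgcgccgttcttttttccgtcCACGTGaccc
DDX21: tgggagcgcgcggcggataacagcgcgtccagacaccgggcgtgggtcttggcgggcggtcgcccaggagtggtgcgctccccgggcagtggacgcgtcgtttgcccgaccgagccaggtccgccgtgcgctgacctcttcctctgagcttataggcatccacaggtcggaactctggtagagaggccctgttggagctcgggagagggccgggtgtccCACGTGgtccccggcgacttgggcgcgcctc
POLR1B: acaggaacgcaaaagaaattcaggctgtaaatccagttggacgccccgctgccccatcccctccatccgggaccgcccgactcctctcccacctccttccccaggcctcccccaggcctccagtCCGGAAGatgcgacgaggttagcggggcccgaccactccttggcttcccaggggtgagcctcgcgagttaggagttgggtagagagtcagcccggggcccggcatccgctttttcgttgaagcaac
POLR1C: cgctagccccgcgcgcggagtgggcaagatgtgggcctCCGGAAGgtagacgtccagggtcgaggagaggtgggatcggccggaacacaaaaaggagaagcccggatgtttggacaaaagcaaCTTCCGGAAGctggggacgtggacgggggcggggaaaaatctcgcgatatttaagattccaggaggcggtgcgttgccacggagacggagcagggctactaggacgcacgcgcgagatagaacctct
FBL: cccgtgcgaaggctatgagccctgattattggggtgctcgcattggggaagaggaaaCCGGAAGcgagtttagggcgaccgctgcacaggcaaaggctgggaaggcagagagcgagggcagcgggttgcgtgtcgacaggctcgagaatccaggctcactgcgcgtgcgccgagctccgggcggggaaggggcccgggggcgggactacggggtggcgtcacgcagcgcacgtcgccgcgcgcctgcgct
The E-box of UTP20 begins 10 bases and that of DDX21 31 bases before the start. The ETS core begins 126 bases before the start in POLR1B and 193 bases in FBL. POLR1C has it at 212 bases and again on both strands at 127 and 124 bases, where the matches overlap.

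The first question was what stimulation did to these genes in the shIKKE line. Differences were small: 0 of 38 genes were at least 2-fold higher, where 10.3% of all genes and 2.93% of the brighter ones were, and 0 were at least 2-fold lower, where 2.68% and 0.904% were. The median log2 difference was -0.17, with 27 of 38 genes below 0, against 50.8% of all genes and 63.5% of the brighter ones. Over all genes the median was -0.011 and over the brighter genes -0.12. At the 1.5-fold threshold 0 genes were higher, against 19.1% of all genes and 7.09% of the brighter ones, and 2 were lower, against 8.88% and 6.42%. These shares are near those of other bright genes. These 2 were WDR3 and POLR1A.

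In the control line the same treatment gave higher signals for 37 of 38 genes, where 45.3% of all genes and 42.8% of the brighter ones lay above 0. At least 2-fold higher were 9 of 38 (23.7%), against 7.57% of all genes and 3.76% of the brighter ones, and 0 were lower, against 6.44% and 3.11%. At least 1.5-fold higher were 24 of 38 (63.2%), against 16% of all genes and 10.2% of the brighter ones, and 0 were lower, against 17.5% and 13.1%. The median was 0.72, against -0.068 over all genes and -0.083 over the brighter ones. When the stimulated control array was compared instead with the shIKKE line's solvent array, a baseline chosen after seeing the data that also carries the difference between the lines, 0 genes were 2-fold higher and the median was -0.079.

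**Figure D2:**
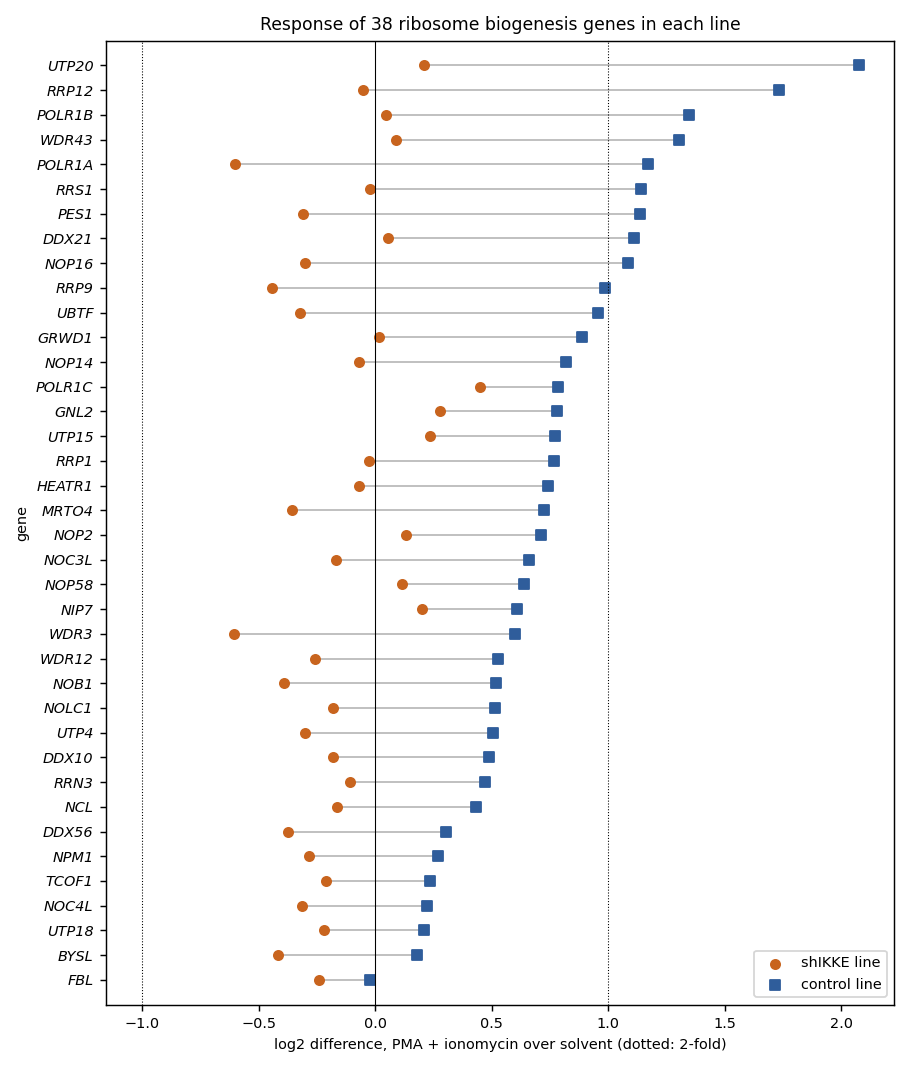
Response of each of the 38 genes, as the log2 difference of PMA and ionomycin over solvent, in the shIKKE line (circles) and the control line (squares). Every square lies to the right of its circle, and 9 squares and no circle lie past the dotted 2-fold line.

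Each RNA polymerase I subunit measured in the group was lowest in the control line with solvent. The other 3 arrays lay close together for POLR1B, but not for POLR1A (range 0.67) or POLR1C (0.45). POLR1B, the second-largest subunit of RNA polymerase I, read 3146 with stimulation and 3042 with solvent in the shIKKE line (log2 0.048), and 3149 with stimulation and 1229 with solvent in the control line (log2 1.35). Thus 3 arrays lay within 0.050 on the log2 scale and the control line with solvent stood below them. Its 3 dimmer probe sets gave 1.17 to 1.45 in the control line. POLR1A, the largest subunit, read 443 with stimulation and 679 with solvent in the shIKKE line (log2 -0.60), and 419.8 with stimulation and 179 with solvent in the control line (log2 1.17). Its solvent values lay furthest apart, the shIKKE line being highest and the control line lowest. Of its other 2 probe sets, one gave 0.91 and the other 0.015 in the control line, so the size rests on the probe set chosen. POLR1C, a subunit shared with RNA polymerase III, read 3091 with stimulation and 2262 with solvent in the shIKKE line (log2 0.45), and 2437 with stimulation and 1407 with solvent in the control line (log2 0.79). It was the gene with the highest response in the shIKKE line, and a second probe set gave 0.60 there and 0.94 in the control line.

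Factors that act with the polymerase followed. UBTF, which binds the ribosomal DNA promoter and gene body, read 1280.1 with stimulation and 1604 with solvent in the shIKKE line (log2 -0.32), and 1875 with stimulation and 959.7 with solvent in the control line (log2 0.96). Its 3 dimmer probe sets gave 0.33 to 0.60 in the control line, and with stimulation they were higher in the shIKKE line (0.25 to 0.47) where the brighter one was lower (-0.55). RRN3, the initiation factor that recruits the polymerase, read 2812 with stimulation and 3035 with solvent in the shIKKE line (log2 -0.11), and 2623 with stimulation and 1891 with solvent in the control line (log2 0.47). TCOF1, encoding the nucleolar protein treacle, lay between 738 and 924 on the 4 arrays, with responses of -0.21 in the shIKKE line and 0.23 in the control line. A second TCOF1 probe set of similar brightness gave 0.41 and 1.04, so its probe sets disagreed on the size and, in the shIKKE line, on the direction.

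The snoRNP and multifunctional nucleolar proteins included the smallest differences. Stimulation of the control line took 1 of 6 measured genes past 2-fold, against 7.57% of all genes and 3.76% of the brighter ones. DDX21, an RNA helicase that links polymerase I transcription to precursor processing, was that gene. It read 21306 with stimulation and 20501 with solvent in the shIKKE line (log2 0.056), and 23581 with stimulation and 10931 with solvent in the control line (log2 1.11). A second probe set gave 0.37 in the shIKKE line and 1.14 in the control line. Its promoter printed above contains the E-box, and its other matched promoter has the ETS core and no E-box. NOP58, a core protein of the box C/D snoRNPs that guide ribose methylation, read 11523 with stimulation and 10641 with solvent in the shIKKE line (log2 0.11), and 11495 with stimulation and 7389.5 with solvent in the control line (log2 0.64). FBL, the methyltransferase of the same particles, read 9198 with stimulation and 10886 with solvent in the shIKKE line (log2 -0.24), and 9403 with stimulation and 9544 with solvent in the control line (log2 -0.021). So members of one particle differed: NOP58 was low in the control line with solvent and FBL was not.

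NOLC1, a chaperone of snoRNPs, read 8992 with stimulation and 10206 with solvent in the shIKKE line (log2 -0.18), and 7769.5 with stimulation and 5441 with solvent in the control line (log2 0.51). Its 2 dimmer probe sets gave 1.16 and 1.17 in the control line, more than 2-fold where the brightest was not. Nucleolin (NCL), an abundant RNA-binding nucleolar protein, read 18949 with stimulation and 21216 with solvent in the shIKKE line (log2 -0.16), and 21095 with stimulation and 15632 with solvent in the control line (log2 0.43). Nucleophosmin (NPM1), a histone and ribosome chaperone, read 27246 with stimulation and 33190.1 with solvent in the shIKKE line (log2 -0.28), and 32214 with stimulation and 26684 with solvent in the control line (log2 0.27). Its other 2 probe sets gave 0.32 and 0.47 in the control line. NPM1 has processed pseudogenes that its probes may also detect.

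The small-subunit assembly factors held the largest single responses in the control line, those of UTP20 and RRP12. Their median there (0.67) was below that of the group's polymerase I transcription genes (0.87) and large-subunit factors (0.75). UTP20, a large scaffold protein of the precursor of the small subunit, read 3679.9 with stimulation and 3178 with solvent in the shIKKE line (log2 0.21), and 3625 with stimulation and 851 with solvent in the control line (log2 2.07). RRP12, a helical-repeat protein needed for export of the pre-ribosome in yeast, read 1145 with stimulation and 1189 with solvent in the shIKKE line (log2 -0.054), and 1096 with stimulation and 319.9 with solvent in the control line (log2 1.73). For both genes 3 arrays were similar and the control line with solvent stood apart. The other 3 RRP12 probe sets, whose signals stayed at or below 139.9, gave 0.0055, 0.75 and 1.22 in the control line.

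WDR43 and HEATR1 belong, with UTP4 and UTP15, to the complex that first binds the precursor. WDR43 read 3359 with stimulation and 3154 with solvent in the shIKKE line (log2 0.090), and 3781 with stimulation and 1524 with solvent in the control line (log2 1.30). HEATR1 read 2937 with stimulation and 3077 with solvent in the shIKKE line (log2 -0.067), and 2819 with stimulation and 1683 with solvent in the control line (log2 0.74). UTP15 (log2 0.77) and UTP4 (0.51) were also higher in the stimulated control line, against 0.23 and -0.30 in the shIKKE line. The 4 factors of this complex were lowest on the same array, by different amounts, and that array was the lowest for 35 of the 38 genes. NOP14, a factor of the central processome, read 2492 with stimulation and 2613 with solvent in the shIKKE line (log2 -0.068), and 2614 with stimulation and 1477 with solvent in the control line (log2 0.82). RRP9, a protein specific to the U3 snoRNP that guides early cleavages, read 784 with stimulation and 1070.3 with solvent in the shIKKE line (log2 -0.44), and 855 with stimulation and 425 with solvent in the control line (log2 0.98). WDR3, another processome scaffold, read 2887 with stimulation and 4399 with solvent in the shIKKE line (log2 -0.61), and 2763 with stimulation and 1819 with solvent in the control line (log2 0.60). It was highest in the shIKKE line with solvent and lowest in the control line with solvent.

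The remaining small-subunit factors gave the following values. NOB1, the endonuclease that makes the final cut of small-subunit RNA, read 2455 with stimulation and 3220.3 with solvent in the shIKKE line (log2 -0.39), and 2798 with stimulation and 1948 with solvent in the control line (log2 0.52). BYSL, a factor of the late precursor, had responses of -0.42 in the shIKKE line and 0.18 in the control line, and NOC4L, a partner of NOP14, had -0.32 and 0.22. UTP18, a processome factor, had -0.22 and 0.21, and the helicase DDX10 had -0.18 and 0.49. In all, stimulation of the control line took 3 of 14 small-subunit factors past 2-fold and 8 past 1.5-fold, with a median of 0.67. Of all genes 7.57% and 16% were higher by these thresholds, and of the brighter ones 3.76% and 10.2%.

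Among the large-subunit factors, stimulation of the control line took 3 of 12 past 2-fold and 10 past 1.5-fold, with a median of 0.75. The shares of all genes were 7.57% and 16%, and those of the brighter genes 3.76% and 10.2%. RRS1, which helps to install the particle of the smallest ribosomal RNA, read 2128 with stimulation and 2164 with solvent in the shIKKE line (log2 -0.024), and 2707 with stimulation and 1219 with solvent in the control line (log2 1.14). PES1, of the complex with BOP1 and WDR12 that processes large-subunit RNA, read 2691 with stimulation and 3342 with solvent in the shIKKE line (log2 -0.31), and 3213 with stimulation and 1454 with solvent in the control line (log2 1.14). WDR12 of the same complex read 5319.6 with stimulation and 6361 with solvent in the shIKKE line (log2 -0.26), and 5194 with stimulation and 3599 with solvent in the control line (log2 0.53). PES1 and WDR12 were both lowest in the control line with solvent, as were 35 of the 38 genes. Both were highest in the shIKKE line with solvent, as were 23 of the 38. Dimmer probe sets of WDR12 gave 0.49 and 0.76 in the shIKKE line and 0.55 and -0.13 in the control line, and were highest on other arrays.

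NOP16, a nucleolar large-subunit factor, read 3476 with stimulation and 4281 with solvent in the shIKKE line (log2 -0.30), and 3525 with stimulation and 1656 with solvent in the control line (log2 1.08). A second NOP16 probe set gave 0.25 and 1.05. GNL2, a GTPase of late nucleolar assembly, read 4105 with stimulation and 3387 with solvent in the shIKKE line (log2 0.28), and 4430.1 with stimulation and 2578 with solvent in the control line (log2 0.78). It was, with POLR1C, UTP15, UTP20, NIP7 and NOP2, among the 6 genes with the highest response in the shIKKE line, where these ran from 0.13 to 0.45. GRWD1, a chaperone of a large-subunit protein, had responses of 0.017 in the shIKKE line and 0.89 in the control line. The RNA methyltransferase NOP2 had 0.13 and 0.71, and NOC3L, a transport and assembly factor, had -0.17 and 0.66. MRTO4, which holds the place of a stalk protein, had -0.35 and 0.73, RRP1 had -0.025 and 0.77, NIP7 had 0.20 and 0.61, and the helicase DDX56 had -0.37 and 0.30. A dimmer DDX56 probe set gave 1.59 in the control line.

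The lines were then compared under each treatment. With stimulation no gene of the group passed either threshold between the shIKKE line and the control line: 0 of 38 genes were at least 2-fold higher (5.99% of all genes and 0.292% of the brighter ones) or lower (2.37% and 0.51%), and 0 were 1.5-fold higher (12.8% and 2.46%) or lower (6.78% and 3.19%). The brighter genes seldom passed these thresholds either. Below 0 lay 24 of 38 genes, against 46.5% and 53.3%. The median was -0.050, with differences from -0.55 for UBTF to 0.34 for POLR1C. RRS1 (-0.34), BYSL (-0.31), GRWD1 (-0.26), RRP1 (-0.26) and PES1 (-0.25) were the next lowest, and NOC3L (0.28), NOLC1 (0.21), NOP2 (0.20), RRN3 (0.10) and POLR1A (0.075) the next highest.

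With solvent all 38 genes read higher in the shIKKE line than in the control line, where 46.3% of all genes and 48.7% of the brighter ones did. At least 2-fold higher were 10 of 38 (26.3%), against 4.34% of all genes and 1.76% of the brighter ones, and 0 were lower, against 6.68% and 2.49%. At least 1.5-fold higher were 26 of 38 (68.4%), against 12% of all genes and 8.34% of the brighter ones, and 0 were lower, against 16.5% and 10.3%. The median was 0.74, against -0.048 over all genes. UTP20 led with 1.88, followed by RRP12 (1.85), POLR1A (1.84), NOP16 (1.36), POLR1B (1.30) and RRP9 (1.30). WDR3 (1.27), PES1 (1.19), NOC3L (1.11) and WDR43 (1.04) completed the 2-fold set. With the median over a gene's probe sets RRP12 (0.31) and WDR3 (0.55) no longer passed 2-fold. FBL (0.19), BYSL (0.28), NOC4L (0.29), NPM1 (0.31), TCOF1 (0.32) and NIP7 (0.33) differed least. Because both lines have 1 solvent array, a line effect and a low control array cannot be told apart.

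**Figure D3:**
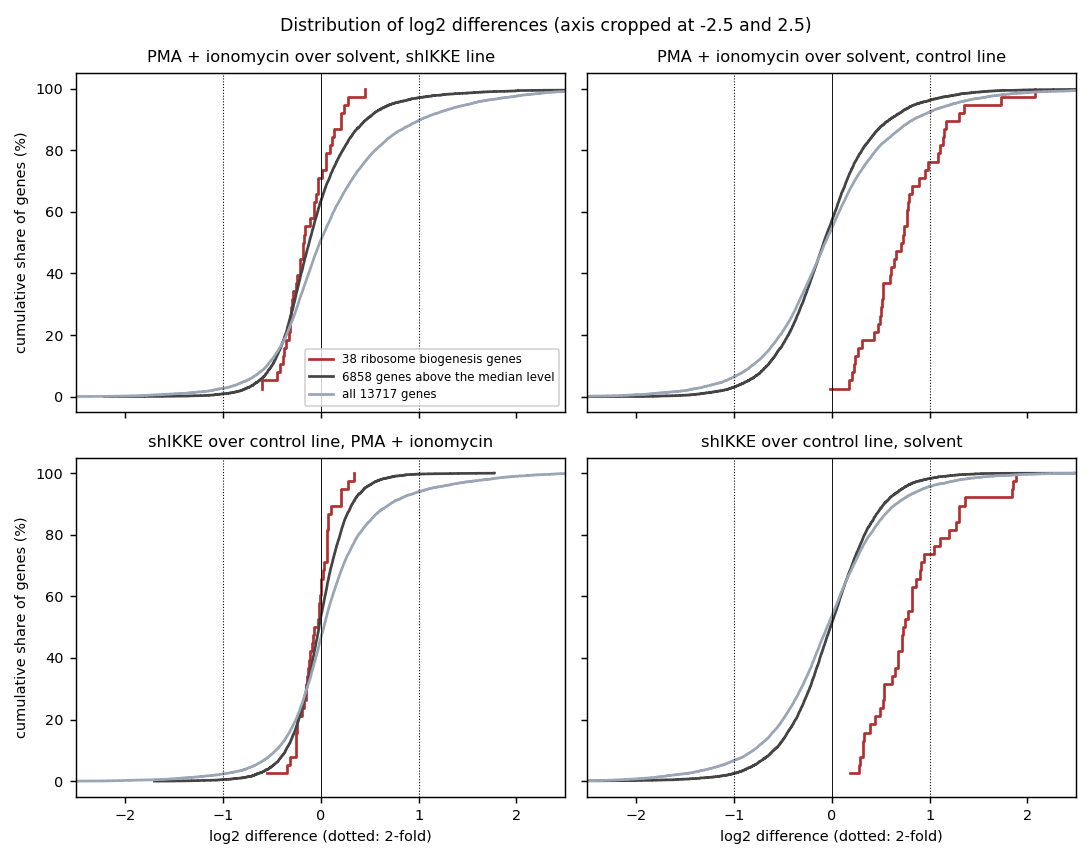
Cumulative distribution of log2 differences of the 38 genes (red), the 6858 genes above the median level (black) and all 13717 genes (grey) in the 4 comparisons. The red curve is shifted to the right in the control line's response and in the comparison of lines with solvent, with medians of 0.72 and 0.74, and lies along the black one in the other panels.

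By the probe sets chosen, the response to stimulation was lower in the shIKKE line than in the control line for each of the 38 genes. It was lower for 44.6% of all genes and 51.4% of the brighter ones. The difference of responses had a median of -0.80, and 13 of 38 genes were lower by at least 2-fold, against 4.67% of all genes and 1.68% of the brighter ones. UTP20 (-1.86), RRP12 (-1.79), POLR1A (-1.77), PES1 (-1.45) and RRP9 (-1.43) had the lowest values, and FBL (-0.22), POLR1C (-0.34), NIP7 (-0.41), UTP18 (-0.43) and TCOF1 (-0.45) the values nearest 0. Several of these rest on the probe set chosen: with the median over a gene's probe sets, RRP12 gave -0.51, POLR1A -1.002, TCOF1 -0.93 and UTP18 -0.066. Most probe sets not chosen also lay below 0. Those above 0 were a dimmer one each of NCL (0.21), NIP7 (0.052), RRP1 (0.50), TCOF1 (1.57), UTP18 (0.29), WDR12 (0.88) and WDR3 (0.092). The difference of responses also contains the low solvent array of the control line. It is therefore not independent of the control line's response or of the comparison with solvent. It has no residual degree of freedom and was not tested.

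Averaged over both lines, no gene of the group passed limma's test (additive model of line and stimulation, Benjamini-Hochberg over 13717 genes). The only residual was the difference of responses, and limma drew each gene's variance towards a prior variance estimated from all genes. The count was 0 of 38 for stimulation and 0 of 38 for the line. At an unadjusted p under 0.05 it was also 0 for both, against 13.8% and 7.29% of all genes. Of all genes 1 (0.00729%) passed the adjusted threshold for stimulation and 0 for the line. UTP20 had the largest average response, 1.14 ± 0.50 on the log2 scale (SE; limma adjusted p = 0.397), being higher with stimulation in both lines, and POLR1C the smallest adjusted p (0.62 ± 0.26, SE; limma adjusted p = 0.387). When limma's prior variance depended on signal level, UTP20, RRP12, POLR1B, WDR43 and DDX21 passed for stimulation (5 genes), among 1044 of all genes. UTP20 and RRP12 passed for the line, among 232. In the shIKKE line alone these genes responded by 0.21 (UTP20), -0.054 (RRP12), 0.048 (POLR1B), 0.090 (WDR43) and 0.056 (DDX21). Between the lines with stimulation UTP20 differed by 0.022 and RRP12 by 0.061. The averages that passed therefore rest largely on comparisons that contain the low solvent array of the control line.

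Other genes of the pathway were read from 5 lists with 115 measured genes of 119. In the stimulated control line 12 of these were at least 2-fold higher (10.4%) and 0 lower, with a median of 0.27. Of all genes 7.57% were higher and 6.44% lower, and of the brighter ones 3.76% and 3.11%. In the shIKKE line 0 of the 115 were 2-fold higher and 0 lower, with a median of -0.20. There 10.3% of all genes and 2.93% of the brighter ones were higher, and 2.68% and 0.904% lower. The medians of the lists differed among themselves. Small-subunit factors had 6 of 37 genes 2-fold higher in the stimulated control line and a median of 0.50, led by NOL6 (1.42), UTP25 (1.23) and UTP14A (1.20), while RIOK2 (-0.48), TBL3 (-0.28) and RRP7A (-0.12) were lowest. Large-subunit factors had 5 of 34 and a median of 0.39, led by the helicase gene DDX31 (1.53), NVL (1.39) and MDN1 (1.31), and EFL1 (-0.78), PELP1 (-0.47) and RRP8 (-0.21) were lowest. EFL1, a GTPase that frees the mature large subunit, read 584 with stimulation and 1106 with solvent in the shIKKE line (log2 -0.90), and 732 with stimulation and 1265 with solvent in the control line (log2 -0.78), and so went down with stimulation in both lines.

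Polymerase I factors outside the group had 1 of 15 genes 2-fold higher (6.67%, near the 7.57% of all genes) and a median of 0.092. That gene was TAF1D, of the promoter selectivity complex, which read 2018 with stimulation and 1944 with solvent in the shIKKE line (log2 0.054), and 2307 with stimulation and 725 with solvent in the control line (log2 1.65). TAF1A (0.57) and POLR1F (0.39) followed, and POLR1D (-0.64), POLR2E (-0.38) and POLR1H (-0.32) were lowest. Other snoRNP and modification factors had 0 of 15 and a median of 0.18, with TGS1 (0.82), NAF1 (0.74) and NUFIP1 (0.74) highest and RUVBL2 (-0.23), SHQ1 (-0.13) and SNU13 (-0.088) lowest. NAF1, an assembly factor of the H/ACA snoRNPs, was higher with stimulation in both lines (0.94 in the shIKKE line). The exosome and trimming factors, which degrade and trim the spacers, had 0 of 14 and a median of 0.012, with EXOSC2 (0.70), EXOSC6 (0.59) and EXOSC10 (0.28) highest and EXOSC1 (-0.37), EXOSC7 (-0.33) and EXOSC3 (-0.14) lowest.

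In the shIKKE line the highest responses of these lists were those of NAF1, KRR1 (0.91), NOM1 (0.75), TTF1 (0.64), DDX52 (0.61), LTV1 (0.61) and MDN1 (0.58), and the lowest those of EFL1, POLR1G (-0.66), IMP3 (-0.63), EMG1 (-0.63), RRP36 (-0.59), SENP3 (-0.55) and FTSJ3 (-0.54). Both directions occurred, but 83 of the 115 genes lay below 0 and 32 above. Below 0 lay 50.8% of all genes and 63.5% of the brighter ones. The control line with solvent was the lowest array for 75 of the 115 genes, against 35 of the 38.

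The cytosolic ribosomal proteins, the final cargo of the pathway, did not share the low array. Of 51 measured genes of 76, 0 were 2-fold or 1.5-fold different in any of the 4 comparisons. In these, 12% to 19.1% of all genes and 2.46% to 10.2% of the brighter ones were 1.5-fold higher. Lower by 1.5-fold were 6.78% to 17.5% and 3.19% to 13.1%. The control line with solvent was lowest for 3 of the 51, against 25.9% of all genes and 25.2% of the brighter ones. Most of the 51 were brighter than most of the group's genes, so the comparison with the group was not matched for signal level. The stimulated shIKKE line was lowest for 43 of the 51, against 23.4% of all genes and 29.8% of the brighter ones. Their median log2 differences were -0.25 for stimulation in the shIKKE line and 0.049 in the control line, and -0.21 for shIKKE over control line with stimulation and 0.10 with solvent. RPS6, for example, read 32152 with stimulation and 42085 with solvent in the shIKKE line (log2 -0.39), and 38376 with stimulation and 35603 with solvent in the control line (log2 0.11).

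**Figure D4:**
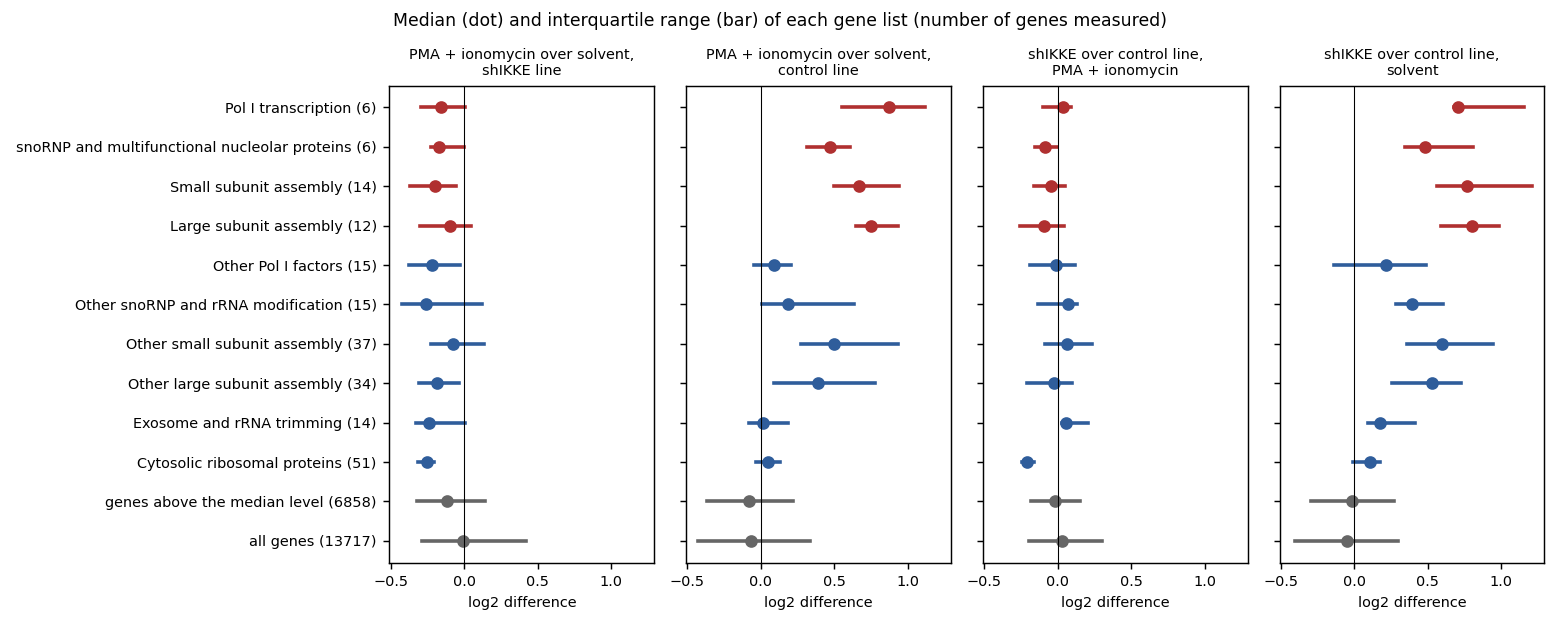
Median (dot) and interquartile range (bar) of the log2 differences of each gene list in the 4 comparisons, with the number of genes measured in parentheses. In the control line's response and the comparison with solvent, the group's roles (red) and the other small- and large-subunit factors lie right of 0. The other snoRNP factors lie less far right there (medians 0.18 and 0.40). The ribosomal proteins lie near 0 in both. The exosome lies near 0 in the control line's response and right of 0 in the comparison with solvent (median 0.18).

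MYC, a known activator of many of these genes, read 2702 with stimulation and 12539 with solvent in the shIKKE line (log2 -2.21), and 2839 with stimulation and 7663 with solvent in the control line (log2 -1.43). It was thus lower with stimulation in both lines, where the members' medians were -0.17 and 0.72. For shIKKE over control line MYC gave -0.071 with stimulation and 0.71 with solvent, beside members' medians of -0.050 and 0.74, and its difference of responses was -0.78 beside -0.80. Any part of MYC in the members' values was not tested.

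The probe sets not chosen gave a check of the measurement within each array. The 38 genes had 72 probe sets past the filter, with 21 genes having several. In the control line 68 of 72 were higher with stimulation, with a median of 0.72, and 31 of the 34 probe sets not chosen had the direction of the chosen one. In the comparison of lines with solvent 66 of 72 were higher in the shIKKE line, and 28 of 34 had the direction of the chosen one. In the shIKKE line's response, where differences were small, 19 of 34 did, and in the comparison of lines with stimulation 13 of 34 did. In these 2 comparisons the direction of a single gene therefore depended on the probe set. Past 2-fold in the response of the shIKKE line were a dimmer probe set of NCL (1.06) and one of TCOF1 (1.70), and that TCOF1 probe set was also 2-fold higher between the lines with stimulation (1.40). The SD between probe sets of 1 gene had a median of 0.23 for the control line's response, 0.27 for the shIKKE line's response and 0.36 for the comparison with solvent. Below 0 in the control line lay the chosen probe set of FBL and dimmer ones of UTP18 (-0.11), WDR12 (-0.13) and WDR3 (-0.047). Their signals stayed at or below 87.3, 271 and 64.1.

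**Figure D5:**
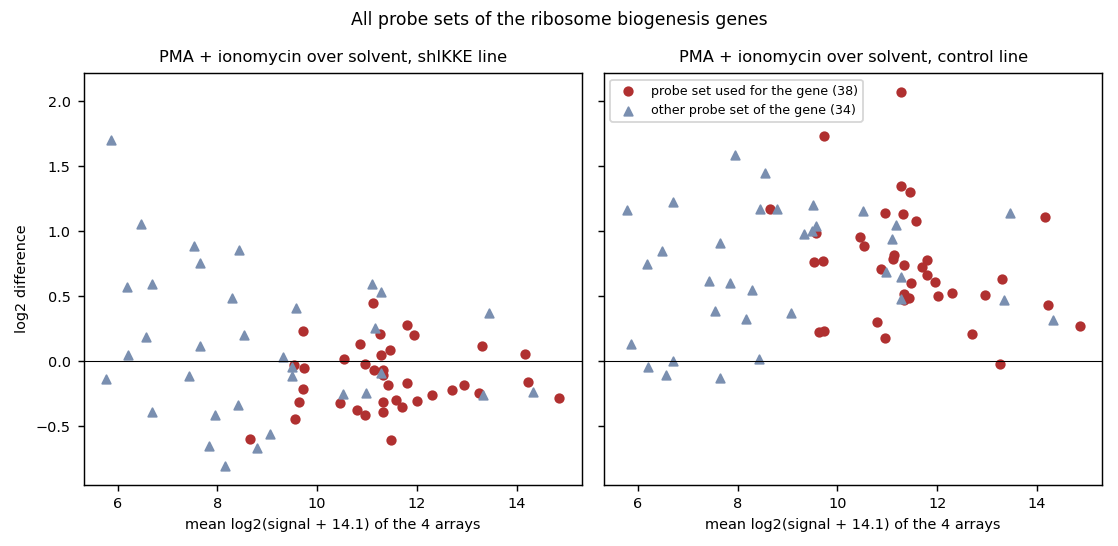
Response of all 72 probe sets against their mean log2(signal + 14.1), in the shIKKE line (left) and the control line (right). Circles are the 38 probe sets used and triangles the 34 others. In the control line 68 of 72 points lie above 0, and 1 of the 4 below is a probe set used, that of FBL.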

How the data were processed

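The data are 4 arrays of a single-colour oligonucleotide platform, 1 per group, hybridised with biotinylated cRNA. The deposited values are MAS5 signals per the submitters' processing notes, an intensity for each probe set that has not been logged. The MAS5 version and scaling target were not stated there. The 2% trimmed mean was 499.9 on each array, so arrays had been scaled to one target, which hides any change in total RNA per cell. The median signal was 69.1 (stimulated shIKKE line), 49.7 (shIKKE line, solvent), 59.8 (stimulated control line) and 48.8 (control line, solvent).

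Probe sets with 1 symbol (41091, of which 41037 matched RefSeq gene IDs with 0 symbols replaced) were used, and 1801 with several symbols and 11721 with none were not. Values were log2(signal + 14.1), the 25th percentile of all signals. Probe sets whose highest array reached 56.4, the median of all signals, were kept (26218 probe sets of 13717 genes). limma 3.58.1 in R 4.3.3 fitted line and stimulation additively (lmFit, eBayes, two-sided, 1 residual degree of freedom, adjusted p at most 0.05). Python 3.11.15 with pandas 2.3.3 did the rest, tested on simulated data. The number of arrays limits the precision. Genes were named by rank in each comparison and list, plus every gene past 2-fold and at least 2 of each role. Members, lists and alternatives were chosen with earlier results of these data known.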

Additional observations from a re-analysis of the deposited data

Results flagged for a closer look

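Responses of opposite direction in the lines drew attention, although with 1 array per group the difference was not tested. The median over the 38 genes was -0.17 in the shIKKE line and 0.72 in the control line. The shIKKE value lay near the median of the brighter genes in that line (-0.12). POLR1A had -0.60 in the shIKKE line and 1.17 in the control line, and WDR3 had -0.61 and 0.60. Other probe sets of POLR1A gave -0.33 and 0.015, and 0.12 and 0.91, and a dim one of WDR3 gave 0.046 and -0.047. The opposite directions of these genes therefore depended on the probe set. The control line's values all rest on its solvent array. No group had enough arrays for a search for outlying samples.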

How the results depend on the processing

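Across the alternatives (no pseudocount, 4 times the pseudocount, no filter, quantile normalization, cyclic loess, centring on the brighter genes, or a median over a gene's probe sets), the medians kept their direction. They ran from -0.17 to -0.045 for stimulation in the shIKKE line, 0.68 to 0.77 in the control line, -0.051 to -0.020 for shIKKE over control line with stimulation, 0.71 to 0.77 with solvent and -0.85 to -0.75 for the difference of responses. Counts of 2-fold higher genes ran from 8 to 11 for the control line's response and 10 to 12 for the lines with solvent. With the shIKKE solvent array as baseline, chosen after seeing the data, the control line's median was -0.079 and the 2-fold count 0. Of the genes past 2-fold before, NOP16 (-0.28), PES1 (-0.057), POLR1A (-0.67) and RRP12 (-0.12) changed sign. DDX21 (0.20), POLR1B (0.050), RRS1 (0.32), UTP20 (0.19) and WDR43 (0.26) stayed above 0. That baseline also carries the difference between the lines. With limma's variance following the level, 5 genes passed for stimulation and 2 for the line, against 0 otherwise. The averages that passed rest largely on comparisons that contain the control line's solvent array. With the median of probe sets, RRP12 gave 0.61 and POLR1A 0.67 in the control line, and RRP12 0.31 and WDR3 0.55 for the lines with solvent. The limma fit already compares treatments within each line, and the arrays carry no replicate numbers for a further block. Leaving out an array leaves no residual degree of freedom.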
